A study of Ovis aries with 24 samples.

Results

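Periventricular white matter (PVWM) is the brain tissue beside the lateral ventricles, where axon tracts run, where oligodendrocyte precursors mature before birth, and where preterm birth is most often followed by injury. Its messenger RNA was compared between ventilated preterm lambs given budesonide with surfactant and lambs that were not ventilated. Members of the comparison were chosen by their group in the labels: 8 of the 24 libraries in the series, 4 from each group, each from a separate animal, with all genes of the table. The budesonide animals (031, 048, 050 and 054) were put on mechanical ventilation; into the trachea they were given surfactant (Poractant alpha, 2.5 mL/kg, an extract of pig lung) and the synthetic glucocorticoid budesonide (0.25 mg/kg). The surfactant animals (007, 032, 049 and 051) had ventilation and the same surfactant dose without budesonide. The unventilated animals (057, 058, 060 and 061) received neither agent and no ventilation. The series title calls the ventilation injurious, and its settings, its length and the time from treatment to tissue collection are not given in the sources used here.

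Gestational age ran almost in parallel with the groups. Of the budesonide animals 3 were females of 126 days and 1 was a male of 127 days (054), and the surfactant group had the same make-up, with its 127-day male in animal 007. The unventilated group held 2 males of 127 days (057 and 058) and 2 animals of 128 days (060 and 061). The PVWM labels give 060 as female and no sex for 061, and the liver label of 060 gives no sex. The contrast of budesonide with unventilated animals therefore joins ventilation, surfactant, budesonide, a gestational age younger by 1 or 2 days in most animals and a larger share of females, and these cannot be told apart by it. The contrast of budesonide with surfactant animals, which differ by budesonide alone in the labels, is given beside it for many of the genes described. These contrasts share libraries, so their values are set side by side and no likeness between them was tested.

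Budesonide binds the glucocorticoid receptor, a transcription factor that moves to the nucleus, switches on feedback and fuel-saving genes such as FKBP5, TSC22D3, PER1 and PDK4, and restrains inflammatory genes. In the developing brain glucocorticoids are also known to act on glial maturation, blood vessels and the division of precursor cells. Microglia, the resident macrophages of the brain, gather in white matter before birth and carry a set of identity genes that depends on signals from the surrounding tissue.

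Total counts per library were 16025401 to 17532605 in budesonide, 14929261 to 16425588 in surfactant and 15698434 to 16125191 in unventilated animals, with 21672 to 22356 genes detected in each of the 12. Glial genes of white matter were present throughout: MBP was at 385 to 1048 CPM in budesonide and 254 to 793 CPM in unventilated animals, and PDGFRA at 235 to 306 CPM in budesonide and 219.8 to 258 CPM in unventilated animals. CPM are counts scaled to library size, not corrected for transcript length. Neuronal RNA was abundant too, with STMN2 at 2200 to 2510 CPM in budesonide and 1980 to 2390 CPM in unventilated animals. TTR, the choroid plexus transporter of thyroid hormone, was at 0.29 to 14.7 CPM in budesonide animals and at 2.7 to 7.9 CPM in 3 unventilated animals, but at 147 CPM in animal 060, which also had the lowest MBP. Over all genes, the first principal component (24.6% of the variance) placed budesonide animals at -30.8 to -13.5, surfactant animals at -25.2 to 15.7 and unventilated animals at 19.5 to 46.7.

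At a Benjamini-Hochberg adjusted p under 0.05 in edgeR's quasi-likelihood test, 1501 of 18616 genes tested differed between budesonide and unventilated animals (8.06%). Of these, 810 were higher (4.35%) and 691 were lower (3.71%) in budesonide animals, and 290 of the higher and 253 of the lower genes differed by more than 2-fold. CPM ranges of the 4 budesonide and 4 unventilated animals did not overlap for 1451 of the called genes and overlapped for 50. The share over all genes tested is not given here. Genes that pass the test tend to separate, so the count adds no support. Log2 changes are budesonide over unventilated animals unless surfactant is named. The median absolute log2 change was 0.72 among the higher and 0.79 among the lower genes, and the median change of all genes was 0.0077. In the same fit 182 genes (0.978%) differed between budesonide and surfactant animals, and 382 genes (2.05%) between surfactant and unventilated animals. For budesonide against unventilated animals, 4065 of the 18616 genes passed at an unadjusted p under 0.05 in edgeR's test. DESeq2, a second tool, called 2126, of which 1119 were higher and 1007 lower. The count for budesonide against unventilated animals was 346 with gestational age as a covariate, 668 with sex as a covariate (leaving out animal 061) and 126 within males of 127 days, and it was 998 without animal 054. Without 054 the higher genes numbered 526 and without 061 they numbered 528, and without 050 the lower genes numbered 459. The budesonide and surfactant count was 78 without 031, 73 without 048, 66 without 050, 73 without 054, 115 without 032 and 113 without 049, and the surfactant and unventilated count was 197 without 060 and 173 without 061.

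**Figure D1:**
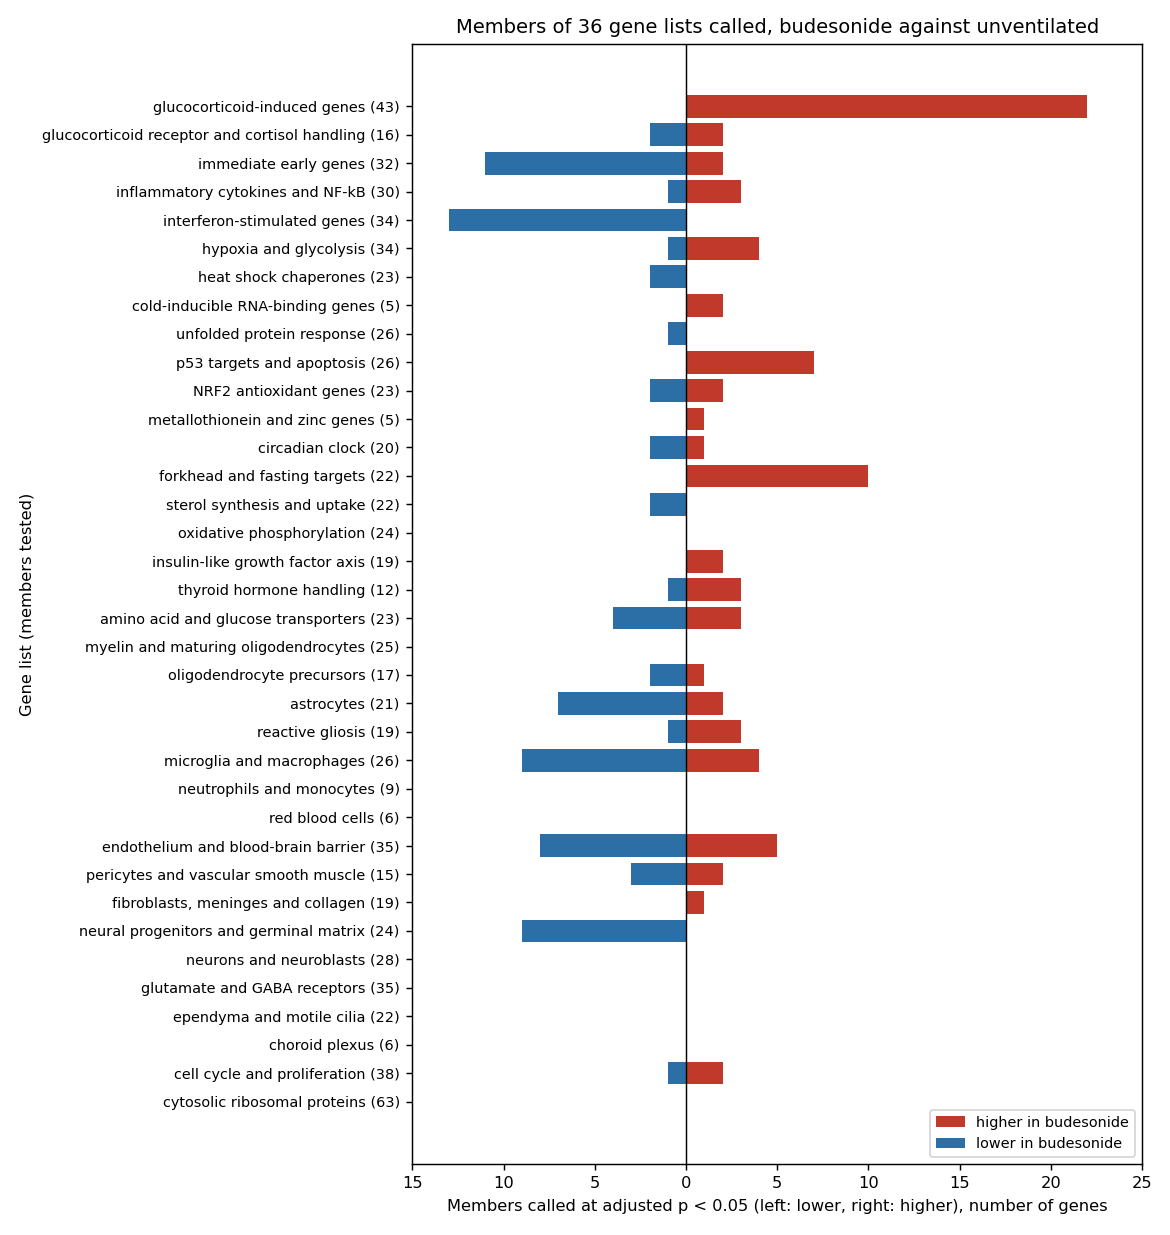
Number of members of each of 36 gene lists called in budesonide against unventilated animals at an edgeR adjusted p under 0.05, with the number of members tested in parentheses. Bars to the right count members higher in budesonide animals and bars to the left members lower; glucocorticoid-induced genes have 22 members to the right and 0 to the left, and interferon-stimulated genes 13 to the left and 0 to the right.

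Glucocorticoid-induced genes were higher in budesonide than in unventilated animals. Of 43 members tested, 22 were higher and 0 lower, where 4.35% of all genes were higher and 3.71% lower (1 was lower at an unadjusted p under 0.05, 0 by DESeq2, and 1 was called lower without animal 051). The list's median log2 change was 0.85, against 0.0077 over all genes. In surfactant animals 17 members were higher and 0 lower than in unventilated animals (median 0.70), where 2.05% of all genes were called. Between budesonide and surfactant animals 7 were higher in budesonide and 0 lower (median 0.14), where 0.978% of all genes were called. FKBP5 stood at 478, 428, 401 and 417 CPM in budesonide, 139, 113, 164 and 183 in surfactant and 17.2, 20.4, 14.1 and 21.8 in unventilated animals. FKBP5 rose, with a log2 change of 4.55, SE 0.18, edgeR adjusted p = 3.16e-08. FKBP5 encodes a co-chaperone that lowers the affinity of the glucocorticoid receptor for its ligand. Its level was 23.5-fold higher in budesonide than in unventilated animals, the lowest budesonide animal lay above every surfactant animal, and the lowest surfactant animal lay above every unventilated one. PDK4 stood at 347, 252, 442 and 375 CPM in budesonide, 110.3, 95.7, 167 and 167 in surfactant and 24.6, 16.8, 9.84 and 10.8 in unventilated animals. PDK4 rose, with a log2 change of 4.51, SE 0.32, edgeR adjusted p = 6.46e-06. PDK4 is a mitochondrial kinase that closes pyruvate dehydrogenase and so spares glucose, and its 3 groups did not overlap either. Budesonide exceeded surfactant animals for both genes (FKBP5: log2 change 1.52, SE 0.15, edgeR adjusted p = 0.000983; PDK4: log2 change 1.39, SE 0.27, edgeR adjusted p = 0.0341).

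Several feedback regulators of the same list followed. TSC22D3 stood at 285, 266, 366 and 289 CPM in budesonide, 168, 180.4, 188 and 245 in surfactant and 126, 137, 133 and 119.9 in unventilated animals. TSC22D3 rose, with a log2 change of 1.22, SE 0.13, edgeR adjusted p = 6.11e-05. TSC22D3, or GILZ, is a leucine zipper protein that holds back inflammatory transcription factors. PER1 stood at 116, 101, 114 and 116 CPM in budesonide, 80.4, 75.7, 94.7 and 73.4 in surfactant and 53.8, 53.4, 42.8 and 47.2 in unventilated animals. PER1 rose, with a log2 change of 1.18, SE 0.10, edgeR adjusted p = 1.72e-05. PER1 is a repressor of the circadian clock with a well known glucocorticoid response. ZBTB16 stood at 56.5, 60.1, 67.9 and 70.7 CPM in budesonide, 36.6, 38.1, 37.8 and 30.9 in surfactant and 17.4, 23.3, 7.08 and 14.6 in unventilated animals. ZBTB16 rose, with a log2 change of 2.03, SE 0.25, edgeR adjusted p = 0.000269. The zinc finger repressor ZBTB16 had non-overlapping groups, with surfactant animals between the other groups. The Krüppel-like factors KLF15 and KLF9 were higher as well, KLF15 at 42.1, 36.4, 51.9 and 40 CPM in budesonide and 16.3, 15.9, 13.7 and 14.9 CPM in unventilated animals (log2 change 1.49, SE 0.13, edgeR adjusted p = 2.46e-05). KLF9 reached 262, 234, 315 and 292 CPM in budesonide, 181, 206, 285 and 361 in surfactant and 70.1, 128, 60.2 and 75.7 in unventilated animals (log2 change 1.72, SE 0.25, edgeR adjusted p = 0.00092). Budesonide and surfactant animals overlapped for KLF9 and their difference did not pass the test (log2 change 0.10, SE 0.24, edgeR adjusted p = 0.931), and for KLF15 the highest surfactant animal, at 28.6 CPM, lay below all budesonide animals (log2 change 0.74, SE 0.13, edgeR adjusted p = 0.0215).

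Genes of signalling and cell shape in the list included NEDD9, an adaptor of integrin signalling, at 48.2, 71, 53.1 and 56.7 CPM in budesonide, 36.4, 25.3, 35.8 and 31 in surfactant and 12.9, 11.3, 7.33 and 9.78 in unventilated animals (log2 change 2.47, SE 0.18, edgeR adjusted p = 6.46e-06). NFKBIA, the inhibitor that keeps NF-kB in the cytoplasm, was at 62.4, 60.8, 59.8 and 61.6 CPM in budesonide and 17.3, 16.4, 13.2 and 16.3 CPM in unventilated animals (log2 change 1.95, SE 0.29, edgeR adjusted p = 0.00121). Surfactant animals ranged from 29.7 to 107 CPM for NFKBIA, on both sides of the budesonide animals (log2 change -0.13, SE 0.28, edgeR adjusted p = 0.914). HIF3A stood at 40.9, 36.5, 27 and 37.2 CPM in budesonide, 32, 28, 28.7 and 15.8 in surfactant and 11.8, 8.28, 7.83 and 9.54 in unventilated animals. HIF3A rose, with a log2 change of 1.92, SE 0.21, edgeR adjusted p = 0.00012. HIF3A belongs to the hypoxia-inducible factor family and is known to respond to glucocorticoids. TIPARP, a mono-ADP-ribosyltransferase, changed by 1.56, adjusted p = 4.96e-05, and PNPLA2, the lipase that starts triglyceride breakdown, by 1.10, adjusted p = 0.000107, both without overlap with unventilated animals. CEBPB (1.44, adjusted p = 0.00655) and GADD45B (1.69, adjusted p = 0.00653) were higher than in unventilated animals but not than in surfactant animals, with means of 7.17 and 7.56 CPM in budesonide against 8.04 and 8.23 CPM in surfactant animals.

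The list also held members that did not pass. SGK1, a kinase that promotes sodium uptake, was at 70.3, 64.7, 48 and 61.2 CPM in budesonide and 46.8, 43.3, 36.7 and 48.2 CPM in unventilated animals (log2 change 0.48, SE 0.16, edgeR adjusted p = 0.0896), and it passed when surfactant animal 032 was left out (adjusted p = 0.0338) and by DESeq2 (adjusted p = 0.0443). CDKN1A, the p21 inhibitor of the cell cycle, spread from 15.1 to 49.9 CPM in budesonide and from 10.6 to 31.3 CPM in unventilated animals (log2 change 0.56, SE 0.43, edgeR adjusted p = 0.501). DUSP1, a phosphatase that ends stress kinase signalling, was called at 80.4, 80.5, 79.9 and 68.2 CPM in budesonide and 32.7, 50.6, 42.5 and 27 CPM in unventilated animals (log2 change 1.02, SE 0.24, edgeR adjusted p = 0.0212). The DUSP1 call was lost without any one of animals 048, 050, 057 or 061 (adjusted p = 0.0505 to 0.0656).

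**Figure D2:**
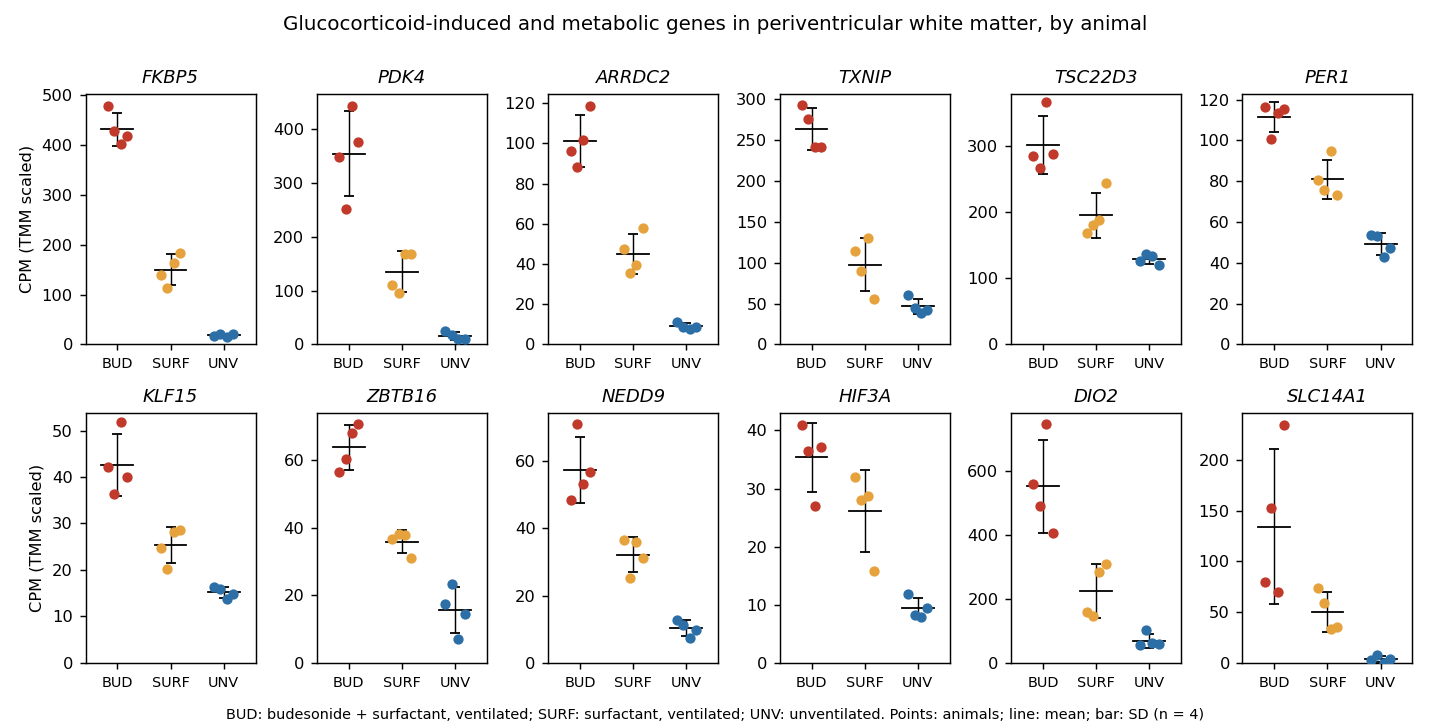
CPM after scaling of 12 genes in each animal, on linear axes from 0, with budesonide (BUD), surfactant (SURF) and unventilated (UNV) animals from left to right; points are animals, lines means and bars SD (n = 4 each). All 12 genes are highest in budesonide animals by mean and lowest in unventilated animals, and for FKBP5 the ranges are 401 to 478, 113 to 183 and 14.1 to 21.8 CPM.

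The receptor itself fell. NR3C1, which encodes the glucocorticoid receptor, was at 45.8, 43.2, 42.6 and 42.6 CPM in budesonide, 39.9, 46.8, 49.9 and 45.4 in surfactant and 58.6, 66.5, 60.7 and 59.3 in unventilated animals (log2 change -0.49, SE 0.08, edgeR adjusted p = 0.00195). All 8 ventilated animals lay below the lowest unventilated animal, and budesonide and surfactant animals overlapped (log2 change -0.064, SE 0.08, edgeR adjusted p = 0.834). HSD11B1, which regenerates active cortisol, was at 2.61, 3.77, 3.35 and 2.52 CPM in budesonide and 3.13, 4.17, 3.45 and 4.4 CPM in unventilated animals and was not called (log2 change -0.30, SE 0.23, edgeR adjusted p = 0.487). HSD11B2, which inactivates cortisol, held 4 counts over the budesonide, 7 over the surfactant and 1 over the unventilated libraries and was too low to test. Among 16 genes of the receptor and of cortisol handling, 2 were higher (FKBP5 and ABCB1) and 2 lower (NR3C1 and FKBP4), 25% called against 8.06% of all genes, the lower count being 1 without any one of 031, 050, 054, 057, 060 or 061. ABCB1, a drug efflux pump of brain vessels that carries glucocorticoids, was at 16, 8.92, 13.4 and 17.5 CPM in budesonide, 13, 10.5, 13.3 and 7.3 in surfactant and 5.58, 7.06, 6.64 and 6.63 in unventilated animals (log2 change 1.11, SE 0.22, edgeR adjusted p = 0.00793). FKBP4, a co-chaperone that favours receptor activity, changed by -0.34, adjusted p = 0.0356, a call lost without any one of animals 031, 048, 050, 054, 057, 060 or 061 (adjusted p = 0.0527 to 0.104).

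Genes of fasting and of forkhead transcription factors, which act when insulin signalling is low, were higher in 10 of 22 members (45.5%, against 4.35% of all genes). Their median log2 change was 0.39, and 0 were lower by edgeR, by DESeq2 or at an unadjusted p under 0.05. Surfactant animals had 8 members higher and 0 lower than unventilated animals (median 0.43), where 2.05% of all genes were called. Budesonide animals had 5 higher and 0 lower than surfactant animals (median 0.21), where 0.978% of all genes were called. ARRDC2 stood at 96.3, 88.4, 102 and 119 CPM in budesonide, 47.3, 35.4, 39.3 and 57.8 in surfactant and 11.2, 8.47, 7.46 and 8.73 in unventilated animals. ARRDC2 rose, with a log2 change of 3.50, SE 0.18, edgeR adjusted p = 2.88e-07. ARRDC2 is an alpha-arrestin, and TXNIP of the same family binds thioredoxin and limits glucose uptake. TXNIP was at 293, 275, 241 and 242 CPM in budesonide, 115, 89.96, 130.4 and 55 in surfactant and 60.3, 44.9, 38.8 and 42.5 in unventilated animals (log2 change 2.49, SE 0.23, edgeR adjusted p = 2.49e-05). Both genes also exceeded surfactant animals (ARRDC2: log2 change 1.17, SE 0.16, edgeR adjusted p = 0.0046; TXNIP: log2 change 1.43, SE 0.22, edgeR adjusted p = 0.00835). The forkhead factor FOXO3 changed by 1.05, adjusted p = 0.000384, and the insulin receptor INSR by 0.95, adjusted p = 6.64e-05. SESN1, an inhibitor of mTOR complex signalling, changed by 0.92, adjusted p = 0.00143. TRIM63, a ubiquitin ligase best known from wasting muscle, was at 2.67, 2.43, 7.27 and 1.95 CPM in budesonide and 0.92, 0.449, 0.125 and 0.433 CPM in unventilated animals (log2 change 2.87, SE 0.64, edgeR adjusted p = 0.0145), its highest value in animal 050.

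IGFBP1, a binding protein that withholds insulin-like growth factors and that insulin represses, was at 2.32, 0.927, 2.54 and 1.26 CPM in budesonide, 0.364, 0.796, 0.741 and 0.499 in surfactant and 0.0614, 0.0642, 0 and 0 in unventilated animals. The groups held 120, 38 and 2 counts in all, in that order. The ratio of budesonide to unventilated counts per library size was 56.7 (exact 95% interval 15.4 to 474, counting error only), and the gene was called (log2 change 5.51, SE 0.65, edgeR adjusted p = 0.000178), with a fitted log2 change that depends on the prior count. SLC37A4, which carries glucose 6-phosphate into the endoplasmic reticulum for glucose release, was at 61.5, 70.7, 90.2 and 76.2 CPM in budesonide, 32.5, 21.8, 25.8 and 36.9 in surfactant and 15.3, 14, 10.4 and 14.9 in unventilated animals (log2 change 2.45, SE 0.18, edgeR adjusted p = 6.46e-06), with no overlap of the 3 groups. Oxidative phosphorylation and cytosolic ribosomal protein genes had 0 of 24 and 0 of 63 members called by edgeR or DESeq2 (0 and 2 at an unadjusted p under 0.05), where edgeR called 8.06% of all genes. Their median log2 changes were -0.024 and 0.077.

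Thyroid hormone handling included DIO2, the deiodinase that makes active T3 in astrocytes. DIO2 stood at 561, 492, 747 and 407 CPM in budesonide, 159, 147, 284 and 310.0 in surfactant and 54.9, 103, 61.7 and 58.1 in unventilated animals. DIO2 rose, with a log2 change of 2.99, SE 0.30, edgeR adjusted p = 4.96e-05. The lowest budesonide animal had 407 CPM and the highest unventilated animal, 058, had 103 CPM. SLCO1C1, a thyroxine carrier of brain vessels and glia, was lower at 13.5, 7.53, 14.1 and 11.4 CPM in budesonide and 22.6, 26.5, 21.1 and 24.1 CPM in unventilated animals (log2 change -1.02, SE 0.22, edgeR adjusted p = 0.014). SLCO4A1, an organic anion transporter able to carry thyroid hormone, was at 34.1, 37.8, 46.4 and 46.4 CPM in budesonide, 11.6, 9.86, 10.2 and 9.24 in surfactant and 1.96, 4.3, 2.44 and 0.991 in unventilated animals (log2 change 4.09, SE 0.30, edgeR adjusted p = 6.46e-06). Budesonide exceeded surfactant animals for it (log2 change 2.01, SE 0.26, edgeR adjusted p = 0.00386).

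Among other transporters, SLC14A1, the urea channel of astrocytes and red cells, was at 79.98, 152, 69.6 and 235 CPM in budesonide, 73.6, 58.7, 33.4 and 35.1 in surfactant and 3.31, 8.09, 0.251 and 4.15 in unventilated animals (log2 change 5.09, SE 0.63, edgeR adjusted p = 0.000264). Budesonide and surfactant animals overlapped for it (log2 change 1.42, SE 0.51, edgeR adjusted p = 0.261). The 6 red cell genes tested had 0 members called by either tool or at an unadjusted p under 0.05, with summed levels of 8.89 to 25.7 CPM in budesonide and 7.33 to 15.2 CPM in unventilated animals. With 8.06% of all genes called by edgeR, 0 calls in so short a list say little. SLC7A8, an exchanger of large neutral amino acids, changed by 1.41, adjusted p = 1.87e-05. SLC7A11, the cystine importer that feeds glutathione synthesis, was lower at 4.53, 4.92, 5.37 and 3.46 CPM in budesonide and 8.96, 12.5, 14.2 and 15.7 CPM in unventilated animals (log2 change -1.49, SE 0.23, edgeR adjusted p = 0.00149). SLC38A5 (-1.70, adjusted p = 0.000326) and the taurine carrier SLC6A6 (-0.80, adjusted p = 0.00172) were lower as well. In all, 3 of 23 amino acid and glucose transporters were higher and 4 lower (4.35% and 3.71% of all genes), and the glucose carrier SLC2A1 was not called (log2 change 0.01, SE 0.23, edgeR adjusted p = 0.986).

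Immediate early genes, which neurons and glia switch on within minutes of a stimulus, were lower in 11 of 32 members and 2 were higher (3.71% and 4.35% of all genes), with a median log2 change of -0.34. NPAS4, a factor induced by neuronal calcium entry, was at 0.697, 0.0579, 0.404 and 0.314 CPM in budesonide, 0.243, 0.306, 0.0674 and 0.374 in surfactant and 3.25, 4.56, 3.76 and 2.91 in unventilated animals (log2 change -3.27, SE 0.46, edgeR adjusted p = 0.000801). All ventilated animals lay below 1 CPM and all unventilated animals above it. EGR4 stood at 4.41, 6.55, 5.66 and 5.91 CPM in budesonide, 7.16, 5.39, 5.46 and 7.86 in surfactant and 14, 18.6, 14.7 and 14.1 in unventilated animals. EGR4 fell, with a log2 change of -1.45, SE 0.17, edgeR adjusted p = 0.000179. EGR1 stood at 10.2, 14.5, 16.8 and 12.3 CPM in budesonide, 15.3, 14.4, 36.7 and 24.1 in surfactant and 32.5, 54.6, 48 and 42.3 in unventilated animals. EGR1 fell, with a log2 change of -1.72, SE 0.28, edgeR adjusted p = 0.00195. EGR1 and EGR4 are zinc finger factors that follow synaptic activity, and budesonide and unventilated animals did not overlap for either. Budesonide and surfactant animals did overlap for both (EGR4: log2 change -0.20, SE 0.17, edgeR adjusted p = 0.73; EGR1: log2 change -0.75, SE 0.28, edgeR adjusted p = 0.279). FOSB, a subunit of the AP-1 factor, was at 0.407, 0.174, 0.346 and 0.44 CPM in budesonide and 1.47, 1.16, 1.32 and 1.24 CPM in unventilated animals (log2 change -1.90, SE 0.31, edgeR adjusted p = 0.00203).

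FOS, its best known relative, was at 8.6, 9.62, 16 and 9.68 CPM in budesonide and 33.7, 39.5, 28.9 and 21.4 CPM in unventilated animals (log2 change -1.49, SE 0.41, edgeR adjusted p = 0.0435), its highest budesonide value in animal 050. The FOS call was lost without any one of animals 031, 032, 048, 054, 057, 058, 060 or 061 (adjusted p = 0.0514 to 0.119). The AP-1 partner JUN was higher, at 159, 184, 201 and 149 CPM in budesonide, 161, 168, 152 and 175 in surfactant and 97.3, 115, 70.2 and 80.8 in unventilated animals (log2 change 0.93, SE 0.14, edgeR adjusted p = 0.00131). With gestational age as a covariate the log2 change of JUN was 0.58 (adjusted p = 0.118), and within 127-day males it was 0.48 (adjusted p = 0.353), so its call was lost in both. The count of lower members was 6 without animal 031 and 7 without animal 058, and that of higher members, JUN and DUSP1, was 1 without any one of 050, 057 or 061. For the next 2 lists, edgeR called 8.06% of all genes. Of 28 neuron and neuroblast genes 0 were called by edgeR or DESeq2 (4 at an unadjusted p under 0.05), with a median log2 change of -0.074. Of 35 glutamate and GABA receptor genes 0 were called by edgeR, with 2 at an unadjusted p under 0.05, 2 by DESeq2, 1 without animal 007, and a median of -0.027.

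Interferon-stimulated genes fell in 13 of 34 members (38.2%, against 3.71% of all genes), with a median log2 change of -0.53; 0 were higher by edgeR or DESeq2 and 1 was at an unadjusted p under 0.05. OAS1 stood at 4.7, 4.4, 5.95 and 4.46 CPM in budesonide, 12.3, 10.7, 14.7 and 16.5 in surfactant and 19, 19.8, 19.6 and 17.2 in unventilated animals. OAS1 fell, with a log2 change of -1.95, SE 0.15, edgeR adjusted p = 7.57e-06. OAS1 senses double-stranded RNA and starts the breakdown of RNA. Budesonide animals lay below every surfactant and unventilated animal, and their difference from surfactant animals passed the test (log2 change -1.47, SE 0.15, edgeR adjusted p = 0.000983). IFIT1 stood at 1.1, 1.22, 1.27 and 0.755 CPM in budesonide, 3.15, 1.84, 2.9 and 2.12 in surfactant and 6.01, 4.04, 3.82 and 5.82 in unventilated animals. IFIT1 fell, with a log2 change of -2.17, SE 0.26, edgeR adjusted p = 0.000207. IFIT1 binds foreign RNA caps. MX1, a GTPase that traps viral particles, was at 10.3, 13.9, 12.1 and 10.5 CPM in budesonide, 23.1, 18.8, 20.3 and 17.5 in surfactant and 27.7, 22.5, 20.5 and 21 in unventilated animals (log2 change -0.97, SE 0.14, edgeR adjusted p = 0.000758). ISG15, a ubiquitin-like modifier, was at 0.639, 0.927, 1.15 and 0.314 CPM in budesonide and 4.85, 3.34, 3.63 and 1.61 CPM in unventilated animals (log2 change -2.13, SE 0.38, edgeR adjusted p = 0.00368). Further members were IFI44 (-2.04, adjusted p = 0.00235), IFI44L (-1.65, adjusted p = 0.00793), IFIT3 (-1.47, adjusted p = 0.0015) and IFIT2 (-1.10, adjusted p = 0.00333). Leaving out 1 library gave 9 to 14 lower members. The calls of CMPK2 (-0.28), DHX58 (-0.65), GBP5 (-1.63) and XAF1 (-1.11) were each lost in several of those fits. IFI44, IFI44L and MX1 were lower than in surfactant animals too, by -1.76, adjusted p = 0.0319 for IFI44, -1.85, adjusted p = 0.0227 for IFI44L and -0.76, adjusted p = 0.0226 for MX1.

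Of 30 inflammatory cytokine and NF-kB genes tested, 3 were higher and 1 was lower, 13.3% called against 8.06% of all genes (0 lower without any one of 031, 048, 050, 054, 060 or 061). Their median log2 change was 0.064. Surfactant animals had 6 members higher and 0 lower than unventilated animals (median 0.66), where 2.05% of all genes were called. Budesonide animals had 1 higher and 4 lower than surfactant animals (median -0.79), where 0.978% of all genes were called. REL, an NF-kB subunit of immune cells, was at 2.96, 3.77, 2.54 and 4.09 CPM in budesonide, 1.03, 0.98, 0.876 and 0.874 in surfactant and 0.798, 0.899, 0.877 and 0.31 in unventilated animals (log2 change 2.20, SE 0.30, edgeR adjusted p = 0.000549). Its 4 budesonide animals lay above all others, and the contrast with surfactant gave a log2 change of 1.82, SE 0.29, edgeR adjusted p = 0.0121. The cytokine gene IL1B was at 0.232, 0.637, 0.462 and 0.818 CPM in budesonide, 2.37, 1.59, 16.5 and 3.99 in surfactant and 3.74, 2.57, 4.14 and 3.41 in unventilated animals (log2 change -2.68, SE 0.70, edgeR adjusted p = 0.0322). All budesonide animals were below 1 CPM for IL1B and all others above it, yet the call was lost without any one of animals 031, 048, 050, 054, 057, 060 or 061 (adjusted p = 0.0581 to 0.0963). TNF was at 3.48 to 6.45 CPM in budesonide and 1.93 to 5.33 CPM in unventilated animals and was not called (log2 change 0.50, SE 0.27, edgeR adjusted p = 0.313). SOCS3, the feedback inhibitor of IL-6 signalling, was at 1.57, 1.16, 2.25 and 1.82 CPM in budesonide and 1.04, 0.514, 0.627 and 0.805 CPM in unventilated animals (log2 change 1.18, SE 0.74, edgeR adjusted p = 0.392; 0.0464 in the fit of the 2 groups alone), below 3 of the 4 surfactant animals, which reached 21.2 CPM. IL6 had 8, 41 and 8 counts over the budesonide, surfactant and unventilated libraries, and CXCL8 had 7, 192 and 0. CXCL8 spanned 0 to 8.69 CPM in surfactant animals. Neither gene passed the filter on low counts, so neither was tested. ACKR2, a receptor that clears inflammatory chemokines, fell to 1.86, 3.01, 4.97 and 3.71 CPM in budesonide animals against 23.2, 64.7, 15.7 and 25.2 CPM in unventilated animals (log2 change -3.25, SE 0.47, edgeR adjusted p = 0.000966).

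Microglia and macrophage genes moved in both directions: of 26 tested, 9 were lower and 4 higher in budesonide animals (3.71% and 4.35% of all genes), with a median log2 change of -0.35. CX3CR1 stood at 3.72, 6.43, 6.87 and 11.7 CPM in budesonide, 32.5, 30.9, 42.9 and 19.5 in surfactant and 52.8, 52.2, 50.7 and 55.7 in unventilated animals. CX3CR1 fell, with a log2 change of -2.88, SE 0.29, edgeR adjusted p = 5.57e-05. CX3CR1 is the receptor by which microglia sense fractalkine from neurons. The highest budesonide value, 11.7 CPM in animal 054, lay below the lowest surfactant value of 19.5 CPM. P2RY12 stood at 9.41, 15.9, 17.3 and 14.4 CPM in budesonide, 49.3, 33.1, 37.2 and 34.9 in surfactant and 32.6, 44.6, 49.4 and 43.5 in unventilated animals. P2RY12 fell, with a log2 change of -1.58, SE 0.19, edgeR adjusted p = 0.000241. TMEM119 stood at 7.55, 10.1, 6.81 and 7.92 CPM in budesonide, 36.8, 20.02, 24.9 and 16.9 in surfactant and 29.2, 23, 20.1 and 28.5 in unventilated animals. TMEM119 fell, with a log2 change of -1.64, SE 0.23, edgeR adjusted p = 0.000707. P2RY12, an ADP receptor that guides microglial processes, and TMEM119 are identity genes of resident microglia. For both, budesonide animals lay below all other animals, and surfactant and unventilated animals overlapped.

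CSF1R, the growth factor receptor on which microglia depend, and SLCO2B1, an organic anion carrier of theirs, also had all budesonide animals below all others. CSF1R stood at 34.6, 29, 39.8 and 36.7 CPM in budesonide, 70.4, 65.3, 80.2 and 60.8 in surfactant and 68.8, 65.6, 76.1 and 66.9 in unventilated animals. CSF1R fell, with a log2 change of -0.99, SE 0.11, edgeR adjusted p = 0.000117. SLCO2B1 stood at 37, 30.9, 41.1 and 44.5 CPM in budesonide, 78.7, 74.5, 108 and 73 in surfactant and 89.5, 112, 90.5 and 92.8 in unventilated animals. SLCO2B1 fell, with a log2 change of -1.33, SE 0.14, edgeR adjusted p = 0.000103. The budesonide group was lower than the surfactant group for CX3CR1 (-2.13, adjusted p = 0.00468), P2RY12 (-1.44, adjusted p = 0.0046), TMEM119 (-1.60, adjusted p = 0.00605), CSF1R (-0.98, adjusted p = 0.00165) and SLCO2B1 (-1.12, adjusted p = 0.00386). SALL1, the transcription factor that holds microglial identity, was at 25.9, 28.4, 23 and 23 CPM in budesonide, 36.5, 28.5, 33.1 and 30.6 in surfactant and 58.7, 57, 57.6 and 59.9 in unventilated animals (log2 change -1.22, SE 0.10, edgeR adjusted p = 8.09e-06). Surfactant animals were near budesonide animals for SALL1 (log2 change -0.36, SE 0.10, edgeR adjusted p = 0.111), a gene that other brain cells can express too. LAPTM5, a lysosomal membrane protein of blood-derived cells, changed by -0.49, adjusted p = 0.0137.

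The 4 members that were higher include CD14, the co-receptor for endotoxin. CD14 stood at 27.9, 25.9, 28.4 and 39.4 CPM in budesonide, 19.4, 10.5, 37.6 and 26 in surfactant and 4.42, 4.62, 5.33 and 3.84 in unventilated animals. CD14 rose, with a log2 change of 2.74, SE 0.32, edgeR adjusted p = 0.000159. Its budesonide and unventilated ranges were far apart, and surfactant animals overlapped with budesonide animals (log2 change 0.38, SE 0.29, edgeR adjusted p = 0.674). IRF8, a factor of the myeloid lineage, was at 14, 19.2, 23.8 and 21.4 CPM in budesonide and 9.76, 10.9, 10.8 and 9.6 CPM in unventilated animals (log2 change 0.93, SE 0.21, edgeR adjusted p = 0.0154), a call lost without animal 061 (adjusted p = 0.0505). The mannose receptor gene MRC1, typical of perivascular macrophages, was at 18.8, 14.5, 8.37 and 13.2 CPM in budesonide and 5.09, 3.47, 4.07 and 3.9 CPM in unventilated animals (log2 change 1.73, SE 0.43, edgeR adjusted p = 0.0256), a call lost without any one of animals 031, 048, 054, 058, 060 or 061 (adjusted p = 0.0542 to 0.0765). AIF1, which encodes the microglial marker IBA1, was at 9.18, 9.21, 8.78 and 10.8 CPM in budesonide and 7.3, 5.78, 6.27 and 6.87 CPM in unventilated animals (log2 change 0.53, SE 0.13, edgeR adjusted p = 0.0263), lost without any one of animals 031, 048, 054, 058, 060 or 061 (adjusted p = 0.0506 to 0.0962). With these losses the higher count was 1 without animal 061 and 2 without any one of 031, 048, 054, 058 or 060. Summed over the 26 genes, the level was 348 to 405 CPM in budesonide, 469 to 677 CPM in surfactant and 582 to 592 CPM in unventilated animals. In bulk tissue fewer cells of a type and less RNA of a gene per cell cannot be told apart, here or for the other cell types below. Neutrophil and monocyte genes had 0 of 9 members called by edgeR, with 2 at an unadjusted p under 0.05, 1 by DESeq2 and 1 without animal 051 or 060. With 8.06% of all genes called by edgeR, 0 calls in so short a list say little. Summed levels were 16.7 to 22.2 CPM in budesonide and 14.7 to 19.9 CPM in unventilated animals, with S100A8 at most at 0.692 CPM in budesonide and 0.245 CPM in unventilated animals.

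**Figure D3:**
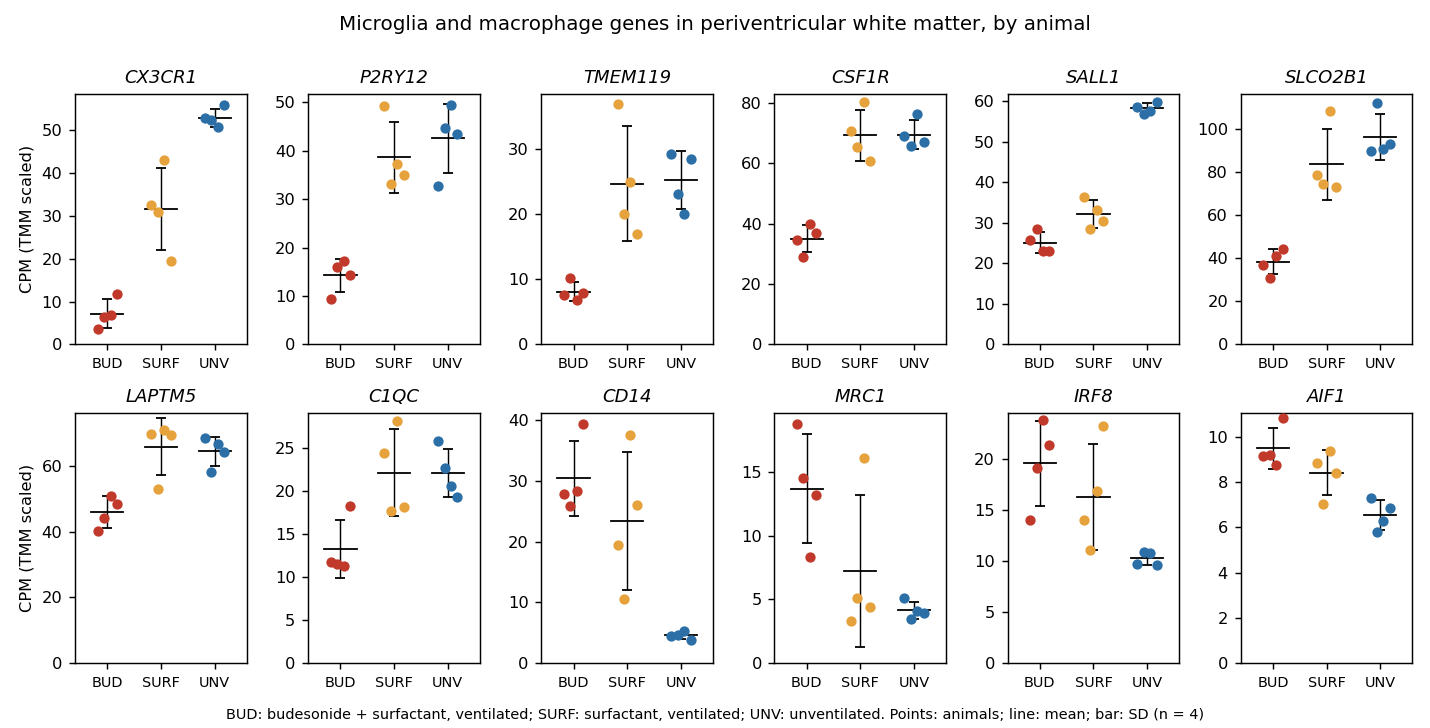
CPM after scaling of 12 microglia and macrophage genes in each animal, on linear axes from 0, with budesonide (BUD), surfactant (SURF) and unventilated (UNV) animals from left to right; points are animals, lines means and bars SD (n = 4 each). Budesonide animals are lowest for CX3CR1, P2RY12, TMEM119, CSF1R and SLCO2B1, and CD14 is at 25.9 to 39.4 CPM in budesonide against 3.84 to 5.33 CPM in unventilated animals.

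Astrocyte genes split. Of 21 tested, 2 were higher and 7 lower (4.35% and 3.71% of all genes). GFAP stood at 2235, 3326, 2621 and 3239 CPM in budesonide, 2886, 2665, 2608 and 2619 in surfactant and 1078, 994, 926 and 951 in unventilated animals. GFAP rose, with a log2 change of 1.53, SE 0.11, edgeR adjusted p = 6.46e-06. GFAP, the intermediate filament that astrocytes build up when they mature or react, had no overlap between ventilated and unventilated animals, and budesonide animals lay on both sides of surfactant animals (log2 change 0.083, SE 0.11, edgeR adjusted p = 0.847). SOX9, a glial transcription factor, was at 145, 185, 159 and 185 CPM in budesonide and 102, 111, 95.9 and 105 CPM in unventilated animals (log2 change 0.70, SE 0.11, edgeR adjusted p = 0.00185). AQP4, the water channel of astrocyte endfeet, was lower at 1277, 1064, 973 and 1050.4 CPM in budesonide and 1338, 1770.0, 1791 and 1915 CPM in unventilated animals (log2 change -0.64, SE 0.12, edgeR adjusted p = 0.00439). FGFR3, a growth factor receptor of astrocytes and their precursors, was at 34.8, 35.9, 26 and 34.3 CPM in budesonide, 49.9, 40.5, 44.6 and 37.2 in surfactant and 69.1, 67.5, 56.6 and 64.6 in unventilated animals (log2 change -0.98, SE 0.12, edgeR adjusted p = 0.000254). The gap junction gene GJB6 changed by -1.33, adjusted p = 0.0141 and the bicarbonate carrier SLC4A4 by -0.73, adjusted p = 0.0067. The astrocyte list summed to 10100 to 11200 CPM in budesonide and 8680 to 10100 CPM in unventilated animals. Of 19 reactive gliosis genes, GFAP, CD14 and CD109 were higher and TNC was lower (21.1% called, against 8.06% of all genes).

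Genes of neural progenitors and of the germinal matrix, the zone beside the ventricle where precursors divide, were lower in 9 of 24 members (37.5%, against 3.71% of all genes), with a median log2 change of -0.49; 0 were higher by edgeR or DESeq2 and 1 was at an unadjusted p under 0.05. NOTCH1 stood at 23.5, 24.6, 21.5 and 24.8 CPM in budesonide, 44, 36.9, 48.2 and 31.6 in surfactant and 73.3, 67.3, 67 and 69.9 in unventilated animals. NOTCH1 fell, with a log2 change of -1.56, SE 0.12, edgeR adjusted p = 6.46e-06. NOTCH1 is the receptor that keeps precursors undifferentiated. Its 3 groups did not overlap, and budesonide was below surfactant (log2 change -0.77, SE 0.12, edgeR adjusted p = 0.00806). HES5, a repressor that Notch signalling induces, was at 5.17, 4.17, 5.6 and 3.71 CPM in budesonide, 11.1, 9.68, 7.41 and 5.12 in surfactant and 18.8, 11.4, 18.4 and 20.1 in unventilated animals (log2 change -1.88, SE 0.25, edgeR adjusted p = 0.000453). FABP7 stood at 64.8, 59.8, 55 and 51.3 CPM in budesonide, 95.1, 66, 74.2 and 96.9 in surfactant and 125, 132, 129 and 120.0 in unventilated animals. FABP7 fell, with a log2 change of -1.13, SE 0.12, edgeR adjusted p = 8.64e-05. FABP7 is a fatty acid carrier of radial glia, the progenitors that also guide migrating neurons. TNC, a matrix protein of the germinal zone, was at 57.3, 31.5, 39.3 and 42.7 CPM in budesonide, 92, 81.4, 57.3 and 84.8 in surfactant and 178, 158, 182 and 144 in unventilated animals (log2 change -1.95, SE 0.18, edgeR adjusted p = 2.75e-05). The RNA-binding protein MSI1 (-1.73, adjusted p = 0.00321) and PAX6 (-0.63, adjusted p = 0.00793) were lower without overlap. Some progenitor calls ended when 1 animal was left out. SOX2 (-0.42) lost its call without any one of animals 050 or 061 (adjusted p = 0.0502 to 0.0562). NES (-0.65) lost it without animal 050 (adjusted p = 0.0537), and NOTCH3 (-0.75) without animal 057 (adjusted p = 0.0511).

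Proliferation genes were called at about the share of all genes. MKI67, a marker of dividing cells, was at 22.6, 27.3, 17 and 20.1 CPM in budesonide and 24.3, 22, 18.6 and 21.9 CPM in unventilated animals (log2 change 0.0041, SE 0.14, edgeR adjusted p = 0.991). Of 38 cell cycle genes, 2 were higher and 1 lower (7.89% called, against 8.06% of all genes), with 2 lower without animal 007, and their median log2 change was 0.015. CCND1, the cyclin that starts the cycle, was lower at 61, 54.3, 52.6 and 46 CPM in budesonide, 73.3, 72.3, 84.2 and 53.5 in surfactant and 104, 99.3, 94.3 and 119 in unventilated animals (log2 change -0.96, SE 0.13, edgeR adjusted p = 0.00059). CDK2, the kinase of S phase entry, was higher at 9.76, 9.44, 9.64 and 10.2 CPM in budesonide and 3.99, 4.62, 5.95 and 5.88 CPM in unventilated animals (log2 change 0.93, SE 0.14, edgeR adjusted p = 0.00122). The other higher member, CCNE2 (0.61), lost its call without any one of animals 031, 032, 050, 054, 057, 058, 060 or 061 (adjusted p = 0.0506 to 0.111), which leaves 1 higher member.

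**Figure D4:**
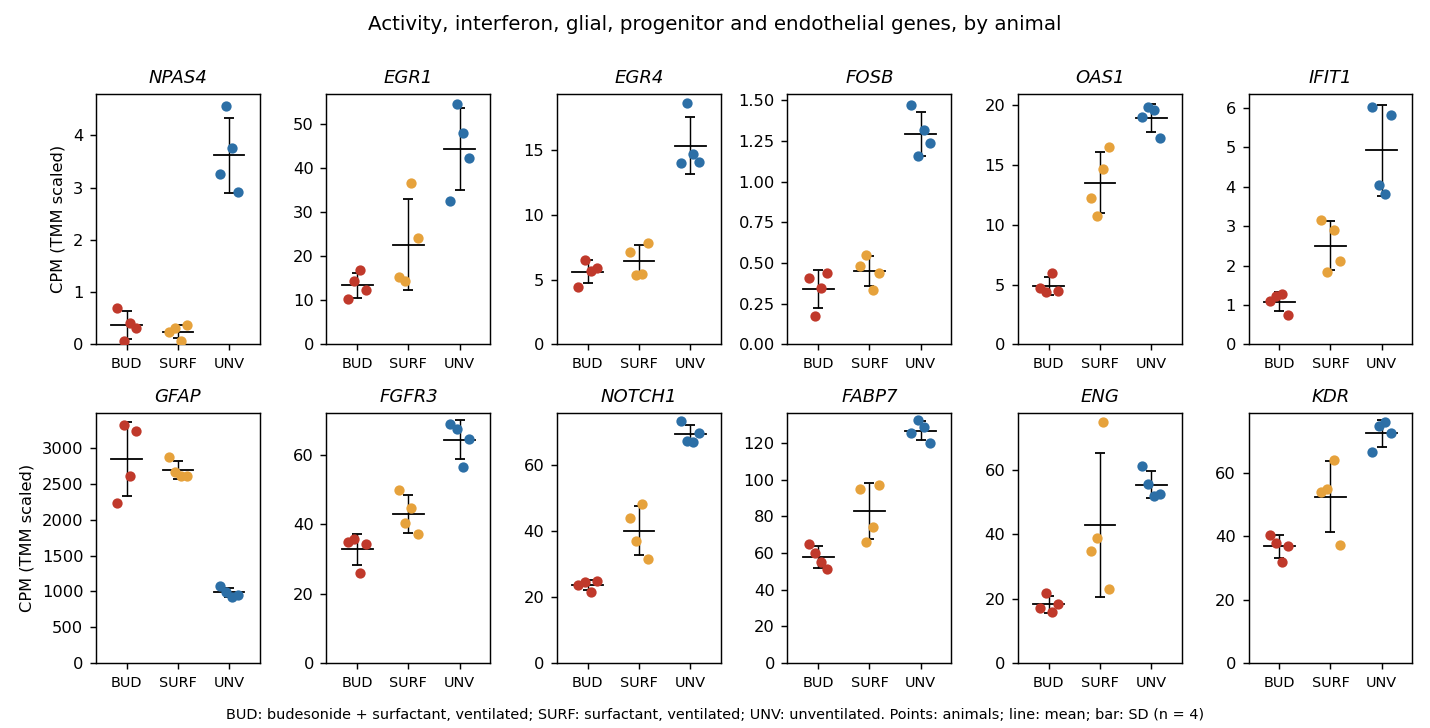
CPM after scaling of 12 genes in each animal, on linear axes from 0, with budesonide (BUD), surfactant (SURF) and unventilated (UNV) animals from left to right; points are animals, lines means and bars SD (n = 4 each). GFAP is the one gene of these 12 that is higher in budesonide than in unventilated animals, NOTCH1 is at 21.5 to 24.8 CPM in budesonide against 67 to 73.3 CPM in unventilated animals, and ENG in surfactant animals spans 23 to 74.9 CPM.

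Of the vascular genes, 5 of 35 genes of the endothelium and blood-brain barrier were higher and 8 lower (4.35% and 3.71% of all genes), and the list's median log2 change was -0.098. ENG stood at 17.2, 21.8, 15.7 and 18.5 CPM in budesonide, 34.7, 38.9, 74.9 and 23 in surfactant and 61.2, 55.8, 52.1 and 52.6 in unventilated animals. ENG fell, with a log2 change of -1.60, SE 0.27, edgeR adjusted p = 0.0027. ENG is a co-receptor for TGF-beta and BMP ligands on endothelial cells, and KDR is the main VEGF receptor. KDR was at 40.4, 38, 31.8 and 37 CPM in budesonide, 53.9, 54.9, 64.1 and 37.3 in surfactant and 66.5, 74.7, 76.3 and 72.5 in unventilated animals (log2 change -0.98, SE 0.14, edgeR adjusted p = 0.000717). The transcription factor SOX18 fell to 1.1, 1.22, 0.924 and 1.07 CPM in budesonide against 6.5, 7.9, 4.76 and 4.89 CPM in unventilated animals (log2 change -2.47, SE 0.38, edgeR adjusted p = 0.00143). APLN, a peptide of sprouting tip cells, was at 4.01, 7.99, 3.87 and 4.02 CPM in budesonide and 20.9, 15.5, 16.9 and 15.6 CPM in unventilated animals (log2 change -1.79, SE 0.36, edgeR adjusted p = 0.00803). FLT4 (-1.23, adjusted p = 0.0111) and ESAM (-0.87, adjusted p = 0.0028) were lower without overlap. PECAM1 and CLDN5, present in all endothelium of the brain, were not called, at 31.6 to 47.3 and 9.23 to 15.4 CPM in budesonide against 32.4 to 37.2 and 8.84 to 13.7 CPM in unventilated animals. VEGFA was not called (log2 change -0.58, SE 0.18, edgeR adjusted p = 0.0762), and passed when surfactant animal 049 was left out (adjusted p = 0.0101), by DESeq2 (adjusted p = 0.0308) and in the fit of the 2 groups alone (adjusted p = 0.0142).

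On the higher side, OCLN, a tight junction protein, was at 33.5, 27.5, 30.7 and 22.3 CPM in budesonide, 14.6, 13.8, 12.6 and 15.9 in surfactant and 16, 19.3, 16.3 and 15.8 in unventilated animals (log2 change 0.76, SE 0.13, edgeR adjusted p = 0.00264). Its budesonide animals lay above all the others, and the surfactant contrast passed (log2 change 1.00, SE 0.13, edgeR adjusted p = 0.00386). SEMA3G, an endothelial semaphorin outside the list, fell to 8.13, 4.17, 6.35 and 8.49 CPM in budesonide against 15.3, 16.7, 26.3 and 12 in surfactant and 32.3, 35.3, 30.02 and 31.1 in unventilated animals (log2 change -2.25, SE 0.25, edgeR adjusted p = 0.000105). Pericyte and smooth muscle genes had 2 of 15 members higher and 3 lower (4.35% and 3.71% of all genes), counts that were 1 higher member without any one of 032, 048, 054, 058, 060 or 061 and 1 lower member without 031 or 057. MYLK, the kinase of smooth muscle myosin, was among the higher ones (0.80, adjusted p = 0.00985).

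Oligodendrocyte genes are the defining genes of this tissue. Of 25 myelin and maturing oligodendrocyte genes 0 were called by edgeR or DESeq2 (2 lower at an unadjusted p under 0.05), where 8.06% of all genes were called, and the list's median log2 change was 0.059. MBP was at 698, 385, 695 and 1048 CPM in budesonide, 749, 942, 303 and 5390.2 in surfactant and 793, 751, 254 and 736 in unventilated animals (log2 change 0.16, SE 0.69, edgeR adjusted p = 0.925). MBP varied several-fold within groups, with animal 060 lowest among unventilated animals and surfactant animal 051 highest of all. PDGFRA, the receptor that marks precursors, was also not called (log2 change 0.15, SE 0.12, edgeR adjusted p = 0.539), nor was OLIG2 (log2 change -0.22, SE 0.22, edgeR adjusted p = 0.614). Of 17 precursor genes 1 was higher and 2 lower (17.6% called, against 8.06% of all genes), with 1 higher and 4 lower by DESeq2 and 1 and 5 at an unadjusted p under 0.05. NKX2-2, a factor for oligodendrocyte differentiation, was lower at 7.03, 6.2, 6.64 and 6.23 CPM in budesonide and 14.6, 12.8, 8.65 and 12.1 CPM in unventilated animals (log2 change -0.89, SE 0.17, edgeR adjusted p = 0.00575). CSPG5 was lower too (-0.39, adjusted p = 0.00385), and CSPG4, or NG2, was higher (0.56), a call lost without any one of animals 031, 032, 048, 054, 058, 060 or 061 (adjusted p = 0.0534 to 0.104), which leaves 0 higher. Ependymal and choroid plexus genes had 0 of 22 and 0 of 6 members called by edgeR or DESeq2 (3 and 0 at an unadjusted p under 0.05), where edgeR called 8.06% of all genes. For the 6 choroid plexus genes, 0 calls say little.

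Genes of the p53 response and of cell death were partly higher. Of 26 p53 target and apoptosis genes 7 were higher (26.9%, against 4.35% of all genes) and 0 lower (0 by DESeq2 and 1 at an unadjusted p under 0.05), with a median log2 change of 0.25. Surfactant animals had 4 members higher and 0 lower than unventilated animals (median 0.15), where 2.05% of all genes were called. Budesonide animals had 1 higher and 0 lower than surfactant animals (median -0.012), where 0.978% of all genes were called. GADD45G stood at 22.4, 25.2, 34.6 and 24.9 CPM in budesonide, 6.37, 3.98, 7.55 and 8.36 in surfactant and 2.7, 4.24, 3.2 and 4.03 in unventilated animals. GADD45G rose, with a log2 change of 2.92, SE 0.23, edgeR adjusted p = 9.81e-06. GADD45A stood at 27.6, 40.8, 31.5 and 42.9 CPM in budesonide, 24.9, 18.3, 32.9 and 31 in surfactant and 8.71, 9.76, 10.5 and 9.47 in unventilated animals. GADD45A rose, with a log2 change of 1.89, SE 0.19, edgeR adjusted p = 5.1e-05. The GADD45 proteins link growth arrest and DNA demethylation to stress kinases. GADD45G in budesonide animals lay above every surfactant animal (log2 change 2.03, SE 0.22, edgeR adjusted p = 0.00142), and GADD45A did not separate from surfactant (log2 change 0.42, SE 0.18, edgeR adjusted p = 0.377). PMAIP1, or NOXA, a pro-death BCL2 family member, was at 29.3, 24.2, 27 and 22.4 CPM in budesonide, 27.8, 20.1, 23.6 and 34.9 in surfactant and 6.07, 10.3, 7.77 and 9.35 in unventilated animals (log2 change 1.62, SE 0.19, edgeR adjusted p = 0.000182). BCL2L1, which blocks cell death, was also higher (0.37, adjusted p = 0.00279).

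Heat shock chaperones had 0 of 23 members higher and 2 lower, 8.7% called against 8.06% of all genes. At an unadjusted p under 0.05 there were 2 higher, by DESeq2 1, and 1 without animal 007 or 049. The lower count was 0 without any one of 031, 050, 054, 057 or 061 and 1 without 058 or 060. HSPA1A, the inducible chaperone, was at 71.7, 117, 61.8 and 60.1 CPM in budesonide and 106, 209.6, 96.2 and 90.7 CPM in unventilated animals (log2 change -0.69, SE 0.44, edgeR adjusted p = 0.397). The cold-inducible RBM3 was called (0.72, adjusted p = 0.0158), lost without any one of animals 031 or 050 (adjusted p = 0.0514 to 0.0521), and CIRBP was not (log2 change 0.38, SE 0.16, edgeR adjusted p = 0.18). Unfolded protein response genes had 0 of 26 members higher and 1 lower, 3.85% called against 8.06% of all genes. At an unadjusted p under 0.05, 7 were higher and 3 lower, where 4065 of all 18616 genes passed. Higher members numbered 4 by DESeq2, 2 without animal 007 and 3 without animal 049. The chaperone partner SDF2L1 was lower (-0.57), a call lost without any one of animals 031, 048, 050, 054, 057, 058, 060 or 061 (adjusted p = 0.0595 to 0.0895); without animal 049 there were 2 lower members. NFE2L2, the antioxidant regulator NRF2, was higher at 122, 107, 119 and 98.7 CPM in budesonide, 67, 73, 116 and 96 in surfactant and 51.3, 50.1, 45.5 and 48.3 in unventilated animals (log2 change 1.19, SE 0.15, edgeR adjusted p = 0.000282). Of 23 NRF2 antioxidant genes, 2 were higher and 2 lower (17.4% called, against 8.06% of all genes). HIF1A was higher (0.59, adjusted p = 0.00476), and the glycolytic regulator PFKFB3 lower (-0.58, adjusted p = 0.00231), with 4 of 34 hypoxia and glycolysis genes higher and 1 lower, 14.7% called against 8.06% of all genes (2 lower without animal 048 and 3 without 049). FDFT1, squalene synthase of the sterol pathway, was lower (-0.58, adjusted p = 0.0142).

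Large changes were also found outside the 36 lists. PLA1A stood at 77.8, 61.7, 68.5 and 89.2 CPM in budesonide, 33.7, 30.1, 29.7 and 39.3 in surfactant and 8.28, 11.2, 8.02 and 8.3 in unventilated animals. PLA1A rose, with a log2 change of 3.05, SE 0.15, edgeR adjusted p = 2.88e-07. PLA1A is a secreted phospholipase that acts on phosphatidylserine. DGKA stood at 104, 96.5, 86.1 and 109 CPM in budesonide, 44, 36.7, 43.2 and 48.4 in surfactant and 21.8, 15.2, 21.3 and 21.2 in unventilated animals. DGKA rose, with a log2 change of 2.31, SE 0.13, edgeR adjusted p = 7.77e-07. DGKA turns diacylglycerol into phosphatidic acid. GREM1 stood at 19.5, 21.7, 27.7 and 22.5 CPM in budesonide, 39.9, 41.1, 36.6 and 57.1 in surfactant and 89.3, 107, 87.2 and 102 in unventilated animals. GREM1 fell, with a log2 change of -2.08, SE 0.15, edgeR adjusted p = 6.46e-06. GREM1 is a secreted antagonist of bone morphogenetic proteins, and its budesonide animals lay below every surfactant animal, which in turn lay below every unventilated one. PLAU stood at 5.63, 6.78, 6.93 and 6.92 CPM in budesonide, 8.74, 9.43, 14.9 and 10.7 in surfactant and 24.6, 23.8, 24.4 and 25.8 in unventilated animals. PLAU fell, with a log2 change of -1.91, SE 0.15, edgeR adjusted p = 1.05e-05. PLAU is the urokinase plasminogen activator. ASAP3 stood at 8.42, 5.1, 6.75 and 7.23 CPM in budesonide, 19.5, 16.8, 20.3 and 16.8 in surfactant and 34.7, 25.8, 28.8 and 29 in unventilated animals. ASAP3 fell, with a log2 change of -2.10, SE 0.15, edgeR adjusted p = 6.46e-06. ASAP3 is an activator of ARF GTPases. For these 5 genes budesonide also differed from surfactant, by 1.16, adjusted p = 0.00253 for PLA1A, 1.20, adjusted p = 0.000983 for DGKA, -0.93, adjusted p = 0.0101 for GREM1, -0.73, adjusted p = 0.0426 for PLAU and -1.42, adjusted p = 0.00116 for ASAP3.

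Other genes at low levels had wide fitted changes. LOXL4, a lysyl oxidase of the extracellular matrix, was at 3.08, 7.01, 11.4 and 14.5 CPM in budesonide and 0.736, 0.642, 0.0627 and 0.433 CPM in unventilated animals (log2 change 4.24, SE 0.58, edgeR adjusted p = 0.00056). DMP1, a matrix phosphoprotein, was at 5.87, 2.43, 3 and 2.83 CPM in budesonide and 38, 26.1, 31.8 and 28 CPM in unventilated animals (log2 change -3.13, SE 0.28, edgeR adjusted p = 2.46e-05). NNMT, which methylates nicotinamide, was at 3.31, 1.85, 3.81 and 3.08 CPM in budesonide and 0.307, 0.128, 0.125 and 0.124 CPM in unventilated animals (log2 change 4.07, SE 0.42, edgeR adjusted p = 6.78e-05). RGS1, a regulator of G protein signalling in immune cells, was at 4.01, 5.1, 5.2 and 2.52 CPM in budesonide and 0.123, 0.128, 0.501 and 0.0619 CPM in unventilated animals (log2 change 4.32, SE 0.63, edgeR adjusted p = 0.000949). SETD7, a lysine methyltransferase, was abundant by comparison, at 429, 542, 445 and 496 CPM in budesonide, 218, 226, 294 and 307 in surfactant and 119.6, 147, 125 and 129 in unventilated animals (log2 change 1.88, SE 0.13, edgeR adjusted p = 5.59e-06). LRRN1, a leucine-rich repeat membrane protein of the nervous system, was at 342, 371, 338 and 306 CPM in budesonide, 188, 153, 184 and 141 in surfactant and 127, 137, 145 and 140.1 in unventilated animals (log2 change 1.31, SE 0.10, edgeR adjusted p = 7.57e-06), with surfactant animals closer to unventilated ones (log2 change 1.03, SE 0.10, edgeR adjusted p = 0.000983).

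Gestational age and sex differed between the groups, and animal 054 was the one budesonide animal that matched any unventilated animal (057 and 058) in both. With age as a covariate all 1501 called genes kept their sign and 338 kept their call, and within the 127-day males all kept their sign and 125 kept their call, with 1 animal against 2 and the spread taken from the 12 libraries. FKBP5 changed by 4.44 (adjusted p = 6.08e-06) with age as a covariate and by 4.47 (adjusted p = 0.000377) within 127-day males. The same log2 values were 4.04 (adjusted p = 0.000337) and 4.18 (adjusted p = 0.00404) for PDK4, 1.60 (adjusted p = 0.000919) and 1.64 (adjusted p = 0.00662) for GFAP, -2.12 (adjusted p = 0.000919) and -2.12 (adjusted p = 0.0189) for OAS1, and -1.47 (adjusted p = 0.0016) and -1.50 (adjusted p = 0.0235) for NOTCH1. For the microglial receptor CX3CR1 they were -2.52 (adjusted p = 0.00546) and -2.17 (adjusted p = 0.0885), for TMEM119 -1.35 (adjusted p = 0.0612) and -1.72 (adjusted p = 0.0615), and for CD14 2.84 (adjusted p = 0.00753) and 3.12 (adjusted p = 0.0412). NPAS4 gave -3.53 (adjusted p = 0.0261) and -3.60 (adjusted p = 0.196), and KDR gave -0.92 (adjusted p = 0.0551) and -0.93 (adjusted p = 0.226). Some named genes moved by over 1.5 times. With age as a covariate GADD45B was at 1.03 (adjusted p = 0.343) and FOS at -2.40 (adjusted p = 0.047). Within 127-day males OCLN was at 0.34 (adjusted p = 0.637), TRIM63 at 1.49 (adjusted p = 0.662), FLT4 at -0.80 (adjusted p = 0.565), GJB6 at -2.14 (adjusted p = 0.178), ISG15 at -3.67 (adjusted p = 0.0524) and CCNE2 at 0.95 (adjusted p = 0.212).

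By list, 12 of 43 glucocorticoid-induced genes were higher with age as a covariate, where 193 of all 18616 genes were higher and 153 lower. In that fit 5 of 22 forkhead and fasting genes were higher. Lower members were 5 of 34 interferon-stimulated genes, 6 of 32 immediate early genes, 5 of 26 microglia and macrophage genes and 3 of 24 progenitor genes. Astrocyte genes had 1 of 21 lower and endothelial genes 3 of 35. Within 127-day males, 1 animal against 2, fewer members passed in each of these lists.

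**Figure D5:**
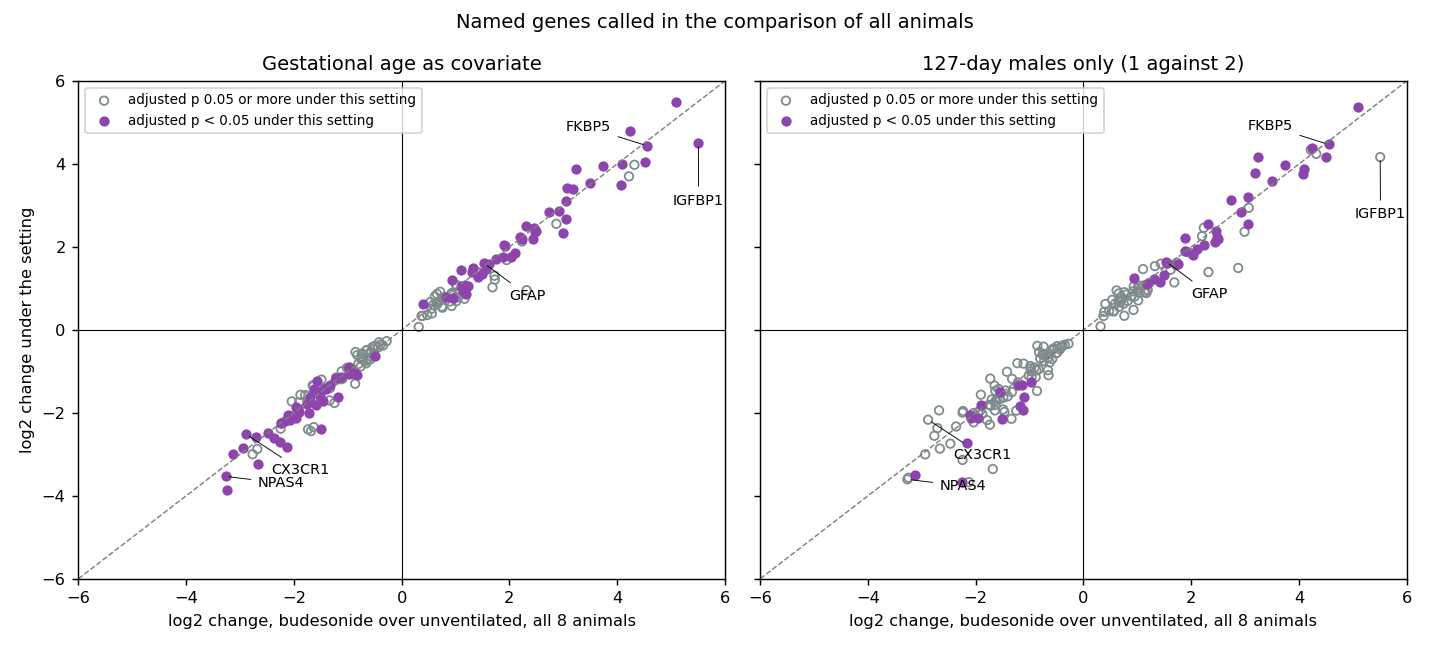
Log2 change of each named gene called in budesonide against unventilated animals (x axis, 8 animals) against its log2 change with gestational age as a covariate (left) or within 127-day males, 1 budesonide against 2 unventilated animals (right); filled points have an edgeR adjusted p under 0.05 under that setting and the dashed line marks equal values. Every point keeps its sign in both panels, and FKBP5 has 4.55 on the x axis against 4.44 and 4.47.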

How the data were processed

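Gene counts of 12 PVWM libraries were used as the authors deposited them, as whole-number counts per gene, not normalized. Per the submitters' processing notes reads were aligned with Bowtie2, counted with featureCounts and analysed with edgeR; versions, settings and genome build are not given in the sources used here. Per the labels' protocols libraries were paired-end after poly-A selection; strand use in counting is not given, so overlapping antisense reads cannot be told apart. The table's 27716 entries comprised 15016 symbols found in the reference supplied, 1049 other symbols, 11120 locus identifiers, 508 more named through the reference, and 23 dates in place of symbols (0.257 to 0.282% of counts), kept as given. No sequence was used here.

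R 4.3.3 with edgeR 4.0.16 was used: filterByExpr (18616 genes), TMM scaling, and a robust quasi-likelihood fit of the 3 groups (12 libraries, common biological coefficient of variation 0.197). Standard errors are the absolute log2 change over the square root of F. Adjusted p-values cover all genes tested in a contrast. No 2 libraries agreed within sampling noise. P-values measure the spread between animals. The procedure was tested on simulated data.

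The comparison, the 36 gene lists and the genes always reported were chosen with earlier results of these data known, so no count over a list is independent evidence. Genes were named by rule: up to 15 called genes in each direction with the largest change, at least 1 CPM and non-overlapping ranges; the 6 in each direction with the smallest p; up to 4 called members per list; up to 8 in each direction also called against surfactant; and a fixed set of marker and target genes whatever their result. Genes named beyond this, and 5 further lists, were chosen after their values were seen, and not every gene that the rule allows is described; some are not reported here. Alternatives were median-ratio scaling, 2 other filters, a fit without robustness, DESeq2 1.42.0, the 2 groups alone, age or sex as covariate, 127-day males, and leaving out each library.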

Additional observations from a re-analysis of the deposited data

Results flagged for a closer look

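In 31 of 406 groups of 4 values (7.64%) 1 animal stood apart, its gap to the nearest of the other 3 exceeding Dixon's critical share of the group's range; chance flags about 1 in 20 groups. Of these, 17 were budesonide and 14 unventilated animals, and animals 048 and 058 had the most, 7 and 7. No cause was tested. Budesonide animal 031 stood apart for BNIP3 (below the others' 161 to 164) at 143 CPM, DMP1 (above the others' 2.43 to 3) at 5.87 CPM and PLAU (below the others' 6.78 to 6.93) at 5.63 CPM. Budesonide animal 048 stood apart for APLN (above the others' 3.87 to 4.02) at 7.99 CPM, CEBPB (below the others' 7.67 to 8.08) at 4.92 CPM, CRYBG3 (above the others' 67.1 to 68.7) at 87.6 CPM, DDIT4 (above the others' 99.3 to 103) at 123 CPM, PER1 (below the others' 114 to 116) at 101 CPM, RSAD2 (above the others' 0.943 to 1.05) at 1.56 CPM and GLI3 (above the others' 9.56 to 10.3) at 14.3 CPM. Budesonide animal 050 stood apart for ARC (above the others' 2.73 to 3.71) at 8.78 CPM, BFSP2 (below the others' 0.314 to 0.348) at 0.115 CPM, FGFR3 (below the others' 34.3 to 35.9) at 26 CPM, FOS (above the others' 8.6 to 9.68) at 16 CPM and TRIM63 (above the others' 1.95 to 2.67) at 7.27 CPM. Budesonide animal 054 stood apart for C1QC (above the others' 11.3 to 11.8) at 18.3 CPM and DUSP1 (below the others' 79.9 to 80.5) at 68.2 CPM. Unventilated animal 057 stood apart for BNIP3 (above the others' 93.6 to 95.4) at 109 CPM, IFI44L (below the others' 2.57 to 2.72) at 1.17 CPM, NNMT (above the others' 0.124 to 0.128) at 0.307 CPM and PAX6 (above the others' 9.46 to 9.85) at 12.3 CPM. Unventilated animal 058 stood apart for DGKA (below the others' 21.2 to 21.8) at 15.2 CPM, DIO2 (above the others' 54.9 to 61.7) at 103 CPM, EGR4 (above the others' 14 to 14.7) at 18.6 CPM, HSPA1A (above the others' 90.7 to 106) at 210 CPM, OCLN (above the others' 15.8 to 16.3) at 19.3 CPM, PLA1A (above the others' 8.02 to 8.3) at 11.2 CPM and SLCO2B1 (above the others' 89.5 to 92.8) at 112 CPM. Unventilated animal 060 stood apart for MBP (below the others' 736 to 793) at 254 CPM, RGS1 (above the others' 0.0619 to 0.128) at 0.501 CPM and TTR (above the others' 2.7 to 7.9) at 147 CPM.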

How the results depend on the processing

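All 1501 called genes kept their sign under every one of 21 alternatives that gave a value. Of 184 named genes called, 45 stayed called under all of them, 139 lost the call under at least 1, and 3 of the 19 uncalled named genes passed under at least 1. The count of 1501 (810 higher, 691 lower) fell to 346 (193 higher, 153 lower) with gestational age as a covariate, 668 (377 and 291) with sex as a covariate and without animal 061, and 126 (91 and 35) within 127-day males. Leaving out 1 library gave 998 to 1657 (higher 526 to 840, lower 459 to 817); the lowest counts came without budesonide animals 054 and 050. DESeq2 called 2126. Budesonide against surfactant, 182 genes, gave 80 with sex as a covariate, 0 within 127-day males (1 animal against 1), 69 in a fit of its 2 groups, 562 by DESeq2, and 66 (without 050) to 207 without 1 library. Surfactant against unventilated, 382 genes, gave 15 with age, 97 with sex, 7 within 127-day males, 174 in a fit of its 2 groups, 819 by DESeq2, and 173 (without 061) to 501 without 1 library. The cause was not tested; several of these settings use fewer animals.

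Signs turned only for genes that were not called. With age as a covariate the log2 change was -0.17 for CDKN1A, -0.19 for MBP, -0.23 for MKI67, -0.16 for SLC2A1 and 2.25 for TTR. With sex as a covariate it was -0.013 for MKI67, 0.083 for OLIG2 and -0.015 for SLC2A1, and within 127-day males -0.20 for MKI67 and 1.48 for TTR. MKI67 was at -0.0041 with no filter and -0.0093 in the fit of 2 groups, where SLC2A1 was at -0.0039. Without 1 library the log2 change spanned -0.12 to 0.16 for CLDN5, -0.11 to 0.36 for MBP, -0.13 to 0.11 for MKI67, -0.089 to 0.079 for SLC2A1, and -3.28 to 0.57 for TTR (0.57 without 060).

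No paired analysis was possible because the compared groups are different animals and the labels give them no shared number. Depth limits genes of a few counts in the compared groups, such as IL6, CXCL8 and HSD11B2.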

Other observations

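Developmental signalling genes were looked at after the progenitor values had been seen, in lists written then, so their counts describe these libraries and support nothing. Of 14 Hedgehog pathway genes 6 were lower and 0 higher in budesonide than in unventilated animals by edgeR and by DESeq2. At an unadjusted p under 0.05 there were 6 and 0. Of all genes, edgeR called 3.71% lower and 4.35% higher. GLI1, a transcription factor that Hedgehog signalling induces, was at 1.34, 0.811, 0.808 and 0.566 CPM in budesonide, 1.88, 0.49, 1.41 and 0.874 in surfactant and 4.42, 5.65, 3.01 and 3.78 in unventilated animals (log2 change -2.24, SE 0.38, edgeR adjusted p = 0.00259). GLI3 stood at 10.3, 14.3, 9.93 and 9.56 CPM in budesonide, 16.7, 12, 17.2 and 6.49 in surfactant and 38.3, 35.1, 29.3 and 35.4 in unventilated animals. GLI3 fell, with a log2 change of -1.64, SE 0.25, edgeR adjusted p = 0.00121. GLI3 is the family's main repressor, and BOC, a co-receptor, was lower too (-1.18, adjusted p = 0.00209). For these 3 genes the contrast of budesonide with surfactant did not pass (-0.40, adjusted p = 0.783 for GLI1, -0.25, adjusted p = 0.779 for GLI3 and -0.67, adjusted p = 0.145 for BOC by edgeR). Of 28 Notch pathway genes 7 were lower and 4 higher (8 and 4 by DESeq2, 9 and 5 at an unadjusted p under 0.05). The ligand JAG1 was lower (-0.91, adjusted p = 0.00307), while NOTCH4, a receptor of endothelial cells, was higher at 65.3, 61.3, 69.3 and 66.4 CPM in budesonide and 40.7, 41.1, 34.3 and 32.4 CPM in unventilated animals (log2 change 0.82, SE 0.10, edgeR adjusted p = 0.000303).

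Of 24 BMP pathway genes 7 were lower and 0 higher (10 and 0 by DESeq2, 11 and 0 at an unadjusted p under 0.05). The lower ones included the antagonists GREM1, NOG (-1.18, edgeR adjusted p = 0.00237) and CHRD (-0.88, edgeR adjusted p = 0.0497). ID3 was lower (-1.33, edgeR adjusted p = 0.0164), a call lost without 048 or 050 (adjusted p = 0.0519 to 0.0568). ID2, ID4, SMAD6 and SMAD7 were not called by edgeR. ID1, which BMP signalling induces, was at 5.23, 5.1, 7.27 and 6.79 CPM in budesonide, 19.96, 15.6, 20.5 and 10.4 in surfactant and 22.9, 29.6, 20.4 and 19.3 in unventilated animals (log2 change -1.92, SE 0.22, edgeR adjusted p = 0.000155), and below surfactant as well (log2 change -1.44, SE 0.22, edgeR adjusted p = 0.00819). Of 37 Wnt pathway genes edgeR called 8 lower and 6 higher (3.71% and 4.35% of all genes). DESeq2 called 13 lower and 6 higher, and 17 and 7 passed at an unadjusted p under 0.05. Of all 18616 genes, DESeq2 called 1007 lower and 1119 higher. At an unadjusted p under 0.05, 4065 passed in either direction. The receptors FZD10 (-2.71, adjusted p = 0.000738) and FZD2 (-2.04, adjusted p = 0.00185) and the feedback inhibitor NKD1 (-1.51, adjusted p = 0.000947) were lower, and FZD4, the receptor of brain vessels, was higher (1.00, adjusted p = 0.000883). Secreted Wnt antagonists differed among themselves, with DKK1, DKK2 (1.31, adjusted p = 0.028) and SFRP5 higher, NOTUM lower (-1.63, adjusted p = 0.0116), and SFRP1, SFRP2, SFRP4, WIF1 and DKK3 not called. The DKK2 call was lost without any one of 031, 048, 054, 057, 060 or 061 (adjusted p = 0.0588 to 0.0878). DKK1 was at 12.7, 3.53, 7.22 and 2.7 CPM in budesonide, 0.303, 0.551, 0.202 and 0.936 in surfactant and 0, 0.257, 0.689 and 0.433 in unventilated animals (log2 change 4.22, SE 0.70, edgeR adjusted p = 0.0022), and SFRP5 at 14.3, 18.4, 16.1 and 12.3 CPM in budesonide, 5.58, 5.27, 5.73 and 7.8 in surfactant and 3.19, 2.44, 3.51 and 2.11 in unventilated animals (log2 change 2.44, SE 0.20, edgeR adjusted p = 1.22e-05). Both differed from surfactant (3.69, adjusted p = 0.0236 for DKK1 and 1.32, adjusted p = 0.00639 for SFRP5). Of 18 complement and Fc receptor genes 5 were lower and 2 higher (3.71% and 4.35% of all genes). The lower count was 3 without any one of 031, 048, 050 or 057, where the calls of both C1QB and C1QC were lost, and the higher count was 1 without any one of 031, 050, 054, 058, 060 or 061. The C5a receptors parted, with C5AR1 at 20.6, 20.9, 26.5 and 26.2 CPM in budesonide and 9.51, 8.54, 8.84 and 10.7 CPM in unventilated animals (log2 change 1.33, SE 0.21, edgeR adjusted p = 0.00185) and C5AR2 at 1.28, 0.348, 0.751 and 0.943 CPM in budesonide and 3.07, 4.3, 4.51 and 3.84 CPM in unventilated animals (log2 change -2.23, SE 0.33, edgeR adjusted p = 0.00105). With gestational age as a covariate the lower counts were 1 for Hedgehog, 1 for Notch, 3 for BMP, 4 for Wnt and 1 for complement genes. In that fit 153 of all 18616 genes were lower. Within 127-day males, 1 animal against 2, no list had a larger lower count. BOC was at -1.84 (adjusted p = 0.0368) within 127-day males.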
